A study of Mus musculus with 5 samples.

Results

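Ptgds, the lipocalin-type prostaglandin D2 synthase, was examined together with the other enzymes that make or inactivate prostaglandins in mouse tibialis anterior (TA) muscle. The set held 9 of the 17015 genes in the expression table: Ptgs1, Ptgs2, Ptgds, Hpgds, Ptges, Ptges2, Ptges3, Ptgis and Hpgd. Ptgds was chosen by its FPKM, which were much higher in the libraries labelled skmNrip1-/- than in the controls, so that contrast is described below without a test. The other 8 genes were chosen as enzymes of the same pathway. RNA was sequenced from whole TA muscle of male mice aged 8 weeks, in 3 libraries of WT control mice and 2 libraries labelled skmNrip1-/-. The skmNrip1-/- mice carried floxed alleles of Nrip1, the gene for the transcriptional coregulator RIP140, from a C57BL/6J line, and a Cre transgene from a C57BL/6JN line driven by the myogenin promoter, which is active in differentiating muscle cells. The controls were littermates without Cre. Cells of the muscle outside the myogenic lineage therefore keep Nrip1 in both groups, and a Cre-only control was not part of the comparison.

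Prostaglandins are lipid signals made from arachidonic acid, which phospholipases release from membranes. The cyclooxygenases convert it to prostaglandin H2, and terminal synthases turn that intermediate into prostaglandin D2, prostaglandin E2, prostacyclin or other prostanoids, which leave the cell, act on G protein-coupled receptors and are then oxidized and lost. In skeletal muscle, prostaglandins are known for roles in blood flow, in inflammation after injury and in the activity of muscle stem cells.

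Values were given as FPKM, a fragment count scaled by transcript length and a library factor, which allows levels of different genes to be set side by side. In the deposited values, single-transcript genes fell on whole-number steps. These gave estimates of the library factor between 0.818 and 1.11 of the first WT control library. The median of ratios to each gene's geometric mean was the same in every library, so this factor need not equal sequencing depth. Differences were fitted with limma on log2(FPKM + 0.1) for the 12148 genes that averaged 0.5 FPKM or more, a scale that understates the change of low genes. A gene was called at a Benjamini-Hochberg adjusted p of 0.05 or less with a fold of at least 1.2. Across all genes tested, 45 were called higher (0.37%) and 10 lower (0.0823%) in the skmNrip1-/- libraries, 55 in either direction (0.453%). These counts depend on the libraries and the scale, with 8 higher and 8 lower without the first skmNrip1-/- library, 6 and 3 without the second, 27 and 3 without WT control library 1, 55 and 16 without WT control library 2, 19 and 3 without WT control library 3, and 29 and 59 on the TPM scale. Both skmNrip1-/- libraries lay above every WT control library for 15.8% of the genes tested, and below every one for 14.4%. The myofiber marker genes were abundant in every library, summing to between 58543 and 85484 FPKM. Nrip1 itself (ENSMUSG00000048490) was at 4.64, 7.69 and 6.55 FPKM in the WT control libraries, compared with 25.3 and 22.5 FPKM in the libraries labelled skmNrip1-/-. It was thus higher where the label gives a knockout, by 1.94 on the log2 scale (SE 0.21, adjusted p = 0.0261, limma). Without WT control library 3 or either skmNrip1-/- library, its difference was 1.98, 1.85 and 2.02 and its adjusted p 0.114, 0.189 and 0.143, above the threshold. The table holds 1 value per gene, and the deleted exon could not be separated from the rest of the transcript. By the study's methods, that exon holds both the start and the stop codon of Nrip1. The loxP sites lie in the intron before it and beyond the untranslated region that follows. Directions below are given for the libraries as labelled.

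Ptgds was among the lowest of the enzymes in WT control muscle and stood beside the most abundant one, Ptges2, in the libraries labelled skmNrip1-/-. Of the other 8 enzymes, 5 passed the minimum level for the test and 0 of these were called, against the 0.453% called over all genes. Their median log2 difference was 0.07, beside -0.00 over all genes tested, and their smallest adjusted p was 0.468 (limma). At an unadjusted p of 0.05 or less (limma) the count was also 0, against 798 genes higher and 647 lower among the 12148 tested. With 5 genes, counts of 0 cannot set these enzymes apart from all genes.

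**Figure D1:**
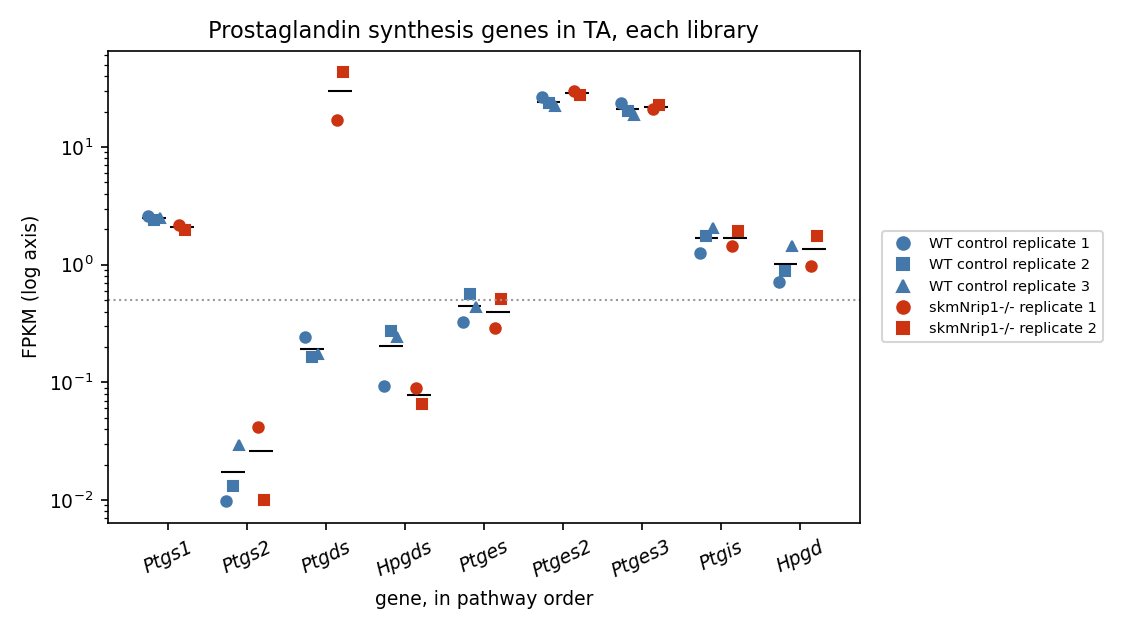
FPKM of the 9 enzymes in each library on a log axis, with 3 WT control and 2 skmNrip1-/- libraries as points, group means as black dashes and the 0.5 FPKM minimum for the test as a dotted line. Ptgds moved from 0.164 to 0.242 FPKM in the WT control libraries to 16.8 and 43.3 FPKM in the skmNrip1-/- libraries, while the groups of the other enzymes overlapped or lay close together.

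Ptgds (ENSMUSG00000015090) encodes an enzyme that isomerizes prostaglandin H2 to prostaglandin D2 and that, as a secreted lipocalin, also carries small lipophilic molecules. The gene lies on the minus strand of chromosome 2 at 25466709 to 25470046 (GRCm38, the same assembly as mm10), with 3 coding transcripts and 0 overlapping genes in GENCODE M21. Bases upstream of its RefSeq start are shown because it is the enzyme whose level differed, and those before Hpgds because it encodes the other prostaglandin D2 synthase. Both come from RefSeq promoter windows on GRCm38.p6, from 250 bases before to 50 bases after each start, limited to the stretch without annotated exons and written 5′ to 3′ along the gene. The Ptgds stretch is chr2:25469843-25469999 on the minus strand, 157 bases ending 93 bases before the RefSeq start. It lies before the first exon of Ptgds-201 and Ptgds-203 and inside the first intron of Ptgds-202, the coding transcript that starts farthest upstream. The Hpgds stretch is chr6:65144909-65144980 on the minus strand, 72 bases ending 178 bases before its RefSeq start. Capitals mark the E-box letters CAGCTG, the kind of sequence bound by myogenic basic helix-loop-helix factors.
Ptgds: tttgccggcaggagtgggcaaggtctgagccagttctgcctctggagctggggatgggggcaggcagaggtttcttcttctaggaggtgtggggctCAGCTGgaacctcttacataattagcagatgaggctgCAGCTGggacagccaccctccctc
Hpgds: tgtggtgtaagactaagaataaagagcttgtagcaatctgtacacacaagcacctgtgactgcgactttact

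The Ptgds window held 2 matches to CAGCTG, and 16.3% of all 32851 RefSeq windows of the same length held at least 1 and 1.90% at least 2. Of the 8 enzymes with a window (Ptgis had none), Ptgds and Hpgd held this sequence. Both strands were searched for 3 further sequences. The nuclear receptor half-site AGGTCA, present in 16.3% of all windows, was found in 0 of the 8, and so was the longer AAGGTCA, which contains it and was present in 4.72%. The AP-1 sequence TGACTCA, present in 5.20% of windows, was found once, in the Ptgds window outside the stretch shown. These are matches of letters, not measured binding sites.

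Ptgds was at 0.242, 0.164 and 0.175 FPKM in the WT control libraries, compared with 16.8 and 43.3 FPKM in the skmNrip1-/- libraries. The groups were far apart, and within the skmNrip1-/- group the second library was 2.57-fold above the first. The means were 0.194 ± 0.0422 FPKM (SD, n = 3) and 30.0 ± 18.7 FPKM (SD, n = 2), a ratio of 155. The difference was 6.54 on the log2 scale, which ranked 1 among all genes tested. The rank depends on the pseudocount, since Ptgds ranked 2 by the ratio of means, below Tmprss13 (213), and with a pseudocount of 0.01 Tmprss13 was at 7.49 and Ptgds at 7.07. Without the first skmNrip1-/- library it was 7.22, and without the second 5.86. The gene passed the minimum level only through the skmNrip1-/- group.

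At the length of the longest coding transcript of Ptgds (901 bases), the WT control values correspond to about 7, 5 and 5 fragments, and the skmNrip1-/- values to about 389 and 1193 fragments. The WT control level of Ptgds was thus near the lower limit of these libraries, in which 3 fragments of this gene are worth between 0.0965 and 0.130 FPKM. These counts are estimates, and fragments copied by PCR are not independent molecules. In terms of all 17015 genes, Ptgds moved from the percentiles 21.4, 17.4 and 17.6 in the WT control libraries to 81.1 and 91.6. The gap between the skmNrip1-/- libraries, 1.36 on the log2 scale, was exceeded by 1.44% of the genes tested.

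Hpgds (ENSMUSG00000029919), the glutathione-dependent prostaglandin D2 synthase known from mast cells and other blood-derived cells, was low in both groups. It was at 0.0933, 0.272 and 0.243 FPKM in the WT control libraries, compared with 0.0897 and 0.0658 FPKM in the skmNrip1-/- libraries. Both skmNrip1-/- values lay below the WT control values, but the first was almost level with the lowest of these. Hpgds was under the minimum for the test. Fitted with no minimum, its log2 difference was -0.72 with an adjusted p of 0.549 (limma). The estimated fragments were 15, 47 and 38 against 11 and 10.

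The ratio of Ptgds to Hpgds was 2.59, 0.603 and 0.720 in the WT control libraries and 187 and 658 in the skmNrip1-/- libraries. In WT control muscle the 2 prostaglandin D2 synthases were thus at overlapping, low levels, and in the skmNrip1-/- libraries the lipocalin-type enzyme made up nearly all of their summed FPKM. In bulk muscle, fewer cells of a type and less RNA per cell cannot be told apart, nor more of either.

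The cyclooxygenases, which supply prostaglandin H2 to every terminal synthase, were not called. Ptgs1 (ENSMUSG00000047250), the constitutive cyclooxygenase, was at 2.58, 2.40 and 2.48 FPKM in the WT control libraries, compared with 2.20 and 1.99 FPKM in the skmNrip1-/- libraries. Both skmNrip1-/- values lay below the WT control values, as was the case for 14.4% of all genes tested. The means were 2.48 ± 0.0903 (SD, n = 3) and 2.09 ± 0.144 FPKM (SD, n = 2). The log2 difference was -0.24 (SE 0.14, adjusted p = 0.582, limma), and its 95% interval ran from a fold of 0.674 to 1.07. On the TPM scale the difference was -0.52, or -0.23 when taken from the median of all genes.

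Ptgs2 (ENSMUSG00000032487), the inducible cyclooxygenase, was close to absent from these libraries. It was at 0.00977, 0.0133 and 0.0291 FPKM in the WT control libraries, compared with 0.0419 and 0.010 FPKM in the skmNrip1-/- libraries, an estimated 2 to 7 fragments per library. The groups overlapped, and a difference was not detectable at this depth. Ptgs1 accounted for between 98.1% and 99.6% of the cyclooxygenase FPKM in every library.

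The prostaglandin E2 synthases held the most abundant enzymes of the set. Ptges2 (ENSMUSG00000026820), a membrane-associated synthase, was at 26.5, 23.5 and 22.5 FPKM in the WT control libraries, compared with 29.9 and 27.5 FPKM in the skmNrip1-/- libraries. Both skmNrip1-/- values lay above the WT control values, as was the case for 15.8% of all genes. Its means were 24.2 ± 2.07 (SD, n = 3) and 28.7 ± 1.75 FPKM (SD, n = 2). The log2 difference was 0.25 (SE 0.12, adjusted p = 0.468, limma), with a 95% interval from a fold of 0.981 to 1.44. When the values were rescaled to TPM, which moved the median of all genes by -0.29, the difference of Ptges2 was -0.05, which is 0.24 more than that median.

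Ptges3 (ENSMUSG00000071072), the cytosolic synthase that is also known as the HSP90 co-chaperone p23, was at 23.8, 20.2 and 18.9 FPKM in the WT control libraries, compared with 20.9 and 22.8 FPKM in the skmNrip1-/- libraries. The groups overlapped, and the log2 difference was 0.07 (SE 0.13, adjusted p = 0.892, limma). Its 95% interval ran from a fold of 0.844 to 1.30. On the TPM scale the difference was -0.23, which is 0.06 more than the median of all genes.

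Ptges (ENSMUSG00000050737), the inducible microsomal synthase that is coupled to Ptgs2 in inflammation, was low. It was at 0.328, 0.559 and 0.440 FPKM in the WT control libraries, compared with 0.290 and 0.509 FPKM in the skmNrip1-/- libraries, which overlapped. It was under the minimum for the test, and with no minimum its log2 difference was -0.13 (adjusted p = 0.926, limma).

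Ptgis (ENSMUSG00000017969), the cytochrome P450 that makes prostacyclin, mostly in vessel walls, was at 1.25, 1.77 and 2.07 FPKM in the WT control libraries, compared with 1.44 and 1.92 FPKM in the skmNrip1-/- libraries. The means were 1.70 ± 0.415 (SD, n = 3) and 1.68 ± 0.334 FPKM (SD, n = 2). The groups overlapped, with a log2 difference of 0.00 (SE 0.25, adjusted p = 0.998, limma). The 95% interval was wide, from a fold of 0.661 to 1.52.

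Hpgd (ENSMUSG00000031613), the NAD-dependent dehydrogenase that starts the inactivation of prostaglandins, was at 0.710, 0.877 and 1.45 FPKM in the WT control libraries, compared with 0.984 and 1.74 FPKM in the skmNrip1-/- libraries. The groups overlapped. Its log2 difference was 0.40 (SE 0.36, adjusted p = 0.737, limma), and the 95% interval from a fold of 0.730 to 2.39 was the widest of the 5 tested enzymes other than Ptgds. The difference was 0.78 without the first skmNrip1-/- library and 0.018 without the second, and 0.20 without WT control library 1 and 0.67 without WT control library 3.

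The order of the enzymes by FPKM was Ptges2, Ptges3, Ptgs1, Ptgis, Hpgd, Ptges, Hpgds, Ptgds and Ptgs2 in the WT control group. Ptges2 and Ptges3, Ptgis and Hpgd, and Hpgds and Ptgds were neighbours whose libraries overlapped. In the skmNrip1-/- group Ptgds stood first by its mean, with libraries that overlapped those of Ptges2, and the order of the other 8 was the same, with Ptgis and Hpgd again overlapping. Within the libraries, Ptgds ranked 7, 8 and 8 of 9 in the WT control group and 3 and 1 in the skmNrip1-/- group.

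Summed over the 6 terminal synthases, the FPKM were 52.2, 46.5 and 44.3 in the WT control libraries and 69.5 and 96.1 in the skmNrip1-/- libraries. Without Ptgds the sums were 51.9, 46.3 and 44.1 against 52.7 and 52.8. Ptgds made up 0.464%, 0.353% and 0.395% of the terminal synthase FPKM in the WT control libraries and 24.2% and 45.0% in the skmNrip1-/- libraries. Without Ptgds, the skmNrip1-/- sums thus lay just above the highest WT control sum. These are transcript levels, and neither enzyme activity nor prostaglandin D2 was measured here.

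The rest of the eicosanoid pathway was described with 7 lists, from the phospholipases that release arachidonic acid to receptors, transport and the lipoxygenase and epoxygenase branches, with the lipocalin family of Ptgds added. Of their 67 genes in the table, 41 were tested, 0 were called higher and 1 lower, against 0.37% and 0.0823% of all genes. Their median log2 difference was -0.07. Both skmNrip1-/- libraries lay above every WT control library for 4 of the 41 and below every one for 8, against 15.8% and 14.4% of all genes tested.

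**Figure D2:**
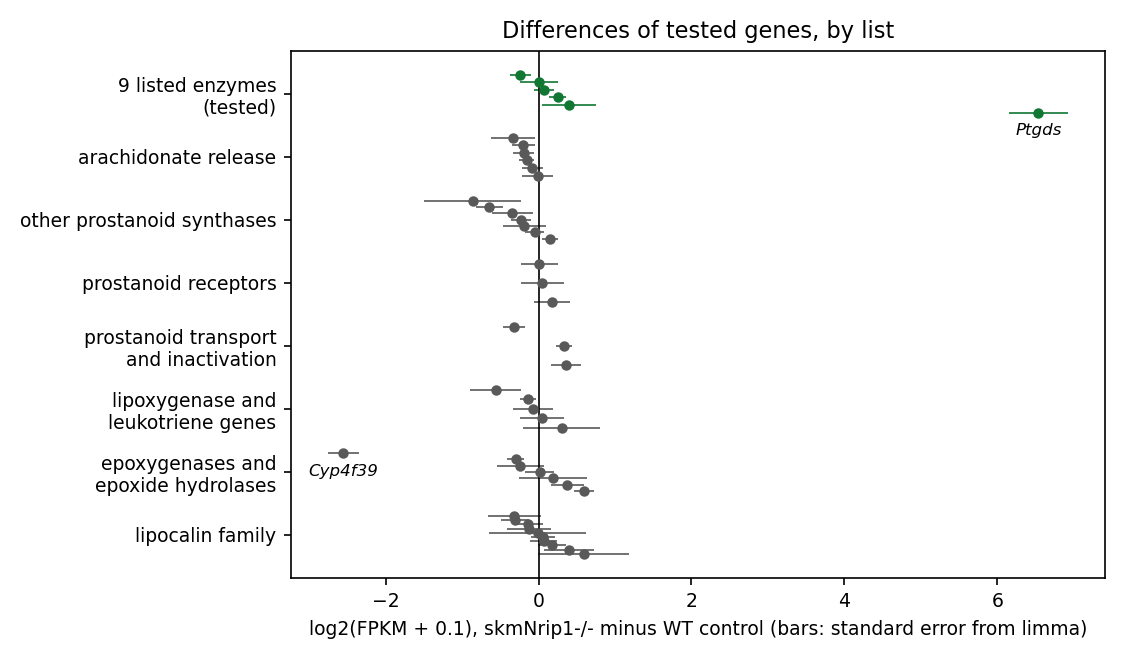
Log2 difference (skmNrip1-/- minus WT control) of each tested gene of the 9 enzymes and the 7 pathway lists, 1 point per gene. Ptgds at 6.54 stood apart, Cyp4f39 at -2.55 was the 1 called gene of the lists, and the other genes lay around 0.

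The 6 tested genes of arachidonate release were not called, and their median was -0.17. The most abundant was Pla2g16, a phospholipase best known from fat cells, at 85.2, 90.2 and 86.6 FPKM in the WT control libraries and 81.6 and 75.6 FPKM in the skmNrip1-/- libraries. Its log2 difference was -0.15 (SE 0.10, adjusted p = 0.616, limma). The lowest and highest differences of this list were -0.34 for Pla2g5, a secreted phospholipase, and -0.01 for Pla2g4b, a cytosolic one. Among the 7 tested genes of the other prostanoid synthases, which include aldo-keto and carbonyl reductases, 0 were called and the median was -0.23. Akr1b3, an aldose reductase that can make prostaglandin F2alpha, had the highest mean over the 5 libraries, with 130, 108 and 110 FPKM in the WT control libraries and 115 and 109 FPKM in the skmNrip1-/- libraries. Prxl2b, a prostamide and prostaglandin F synthase named after its values were seen, was above Akr1b3 in every WT control library, at 158, 114 and 115 FPKM, compared with 87.6 and 75.8 FPKM in the skmNrip1-/- libraries. Its log2 difference was -0.64 (SE 0.17, adjusted p = 0.244, limma), and on the TPM scale it was called lower at -0.94. The extremes were Gstm3, a glutathione transferase, at -0.86 (SE 0.64) and Cbr1, a carbonyl reductase, at 0.15 (SE 0.11).

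The 3 tested genes of the prostanoid receptor list were Ptger4, a prostaglandin E2 receptor, Ptgir, the prostacyclin receptor, and Ptgfrn, a regulator of the prostaglandin F receptor. Their log2 differences were 0.05, 0.01 and 0.17, and 0 were called. Ptgdr2, a receptor for prostaglandin D2, was at 0.069, 0.063 and 0.017 FPKM in the WT control libraries and 0.021 and 0.018 FPKM in the skmNrip1-/- libraries, under the minimum for the test. It is named here after its values were seen, as a receptor of the product of Ptgds. Ptgdr was on the list but was not among the genes in the expression table. In the list of transport and inactivation, 0 of 3 were called. Ptgr2, a reductase of oxidized prostaglandins, was the highest at 0.36 (SE 0.19, adjusted p = 0.545, limma), and Abcc4, an exporter of prostaglandins, the lowest at -0.32 (SE 0.14, adjusted p = 0.446, limma).

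In the lipoxygenase and leukotriene list, 0 of 5 were called. The most abundant was Lta4h, the leukotriene A4 hydrolase, with a log2 difference of -0.14, and the extremes were Ggt5 at -0.56 and Ltc4s at 0.31. In the epoxygenase list, 1 of 7 was called lower. Cyp4f39, a fatty acid hydroxylase of the CYP4F family, was at 16.0, 9.91 and 12.9 FPKM in the WT control libraries, compared with 2.09 and 2.07 FPKM in the skmNrip1-/- libraries. The groups were well separated, and the log2 difference was -2.55 (SE 0.20, adjusted p = 0.00654, limma). Without either skmNrip1-/- library its adjusted p was just above the threshold, at 0.0506 and 0.0600. Ephx2, the soluble epoxide hydrolase, was the highest of the list and was at 13.7, 17.0 and 13.4 FPKM against 22.3 and 21.8 FPKM. Its log2 difference was 0.59 (SE 0.13) with an adjusted p of 0.178 (limma).

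Of the 10 other lipocalins tested, 0 were called and the median difference was 0.02. Apod, apolipoprotein D, had the highest mean over the 5 libraries, with 17.3, 17.3 and 23.4 FPKM in the WT control libraries and 22.1 and 18.1 FPKM in the skmNrip1-/- libraries. The extremes were Lcn2, the iron-siderophore binding lipocalin, at -0.32 and Mup20, a major urinary protein, at 0.59 (SE 0.60). Mup20 belongs to a family of near-identical genes, so its reads may be shared with other members.

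The genes around Ptgds were compared next. Within 100 kb of Ptgds lie 13 protein-coding genes, of which 10 were tested and 0 called, against 0.453% of all genes tested. The median log2 difference of the 10 was -0.09, and their range was -0.41 for Mamdc4 to 0.87 for Abca2. The highest values belonged to Abca2 and Paxx, both beyond the 3′ end of Ptgds. Abca2, a lipid transporter of the ABC family, was at 4.97, 5.70 and 5.67 FPKM in the WT control libraries, compared with 8.40 and 11.9 FPKM in the skmNrip1-/- libraries. Its log2 difference was 0.87 (SE 0.17, unadjusted p = 0.00177, adjusted p = 0.129, limma). Paxx, a factor of DNA end joining, was at 8.92, 7.17 and 8.36 FPKM against 12.5 and 14.7 FPKM, with a log2 difference of 0.73 (SE 0.14, unadjusted p = 0.0015, adjusted p = 0.124, limma). Both skmNrip1-/- libraries lay above the WT control libraries for Abca2 and Paxx, as was the case for 15.8% of all genes tested. Both lay below for Npdc1, at 9.22, 7.98 and 9.11 FPKM in the WT control libraries against 7.32 and 7.62 FPKM, as was the case for 14.4%. Clic3, which lies within Paxx on the other strand, had a log2 difference of -0.13, and reads of these overlapping genes may not be told apart. C8g and Fbxw5, the nearest tested genes on the 5′ side of Ptgds, had log2 differences of 0.06 and 0.04.

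**Figure D3:**
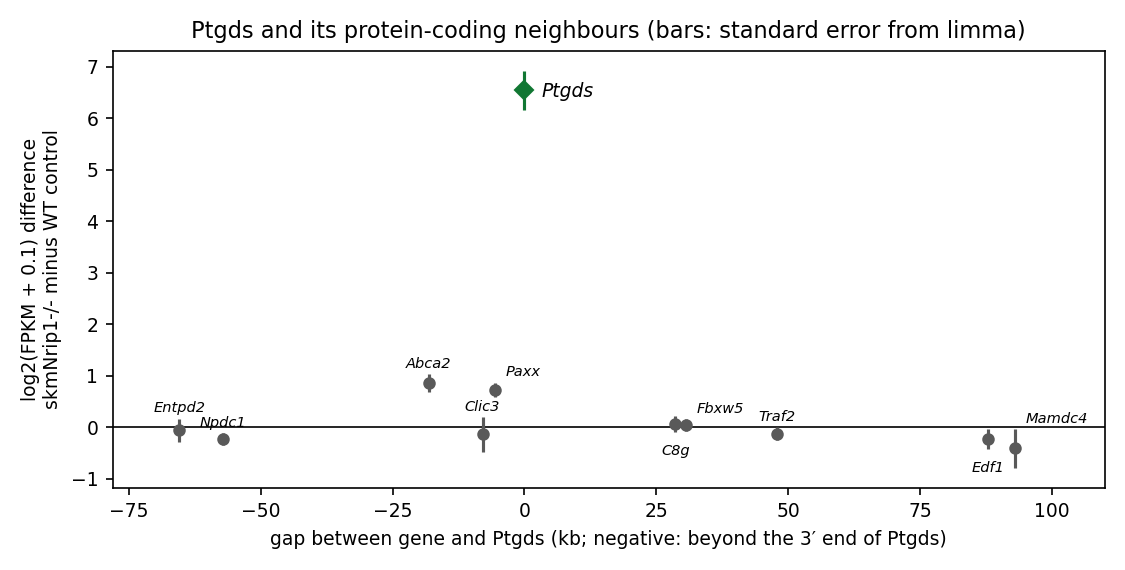
Log2 difference of Ptgds and of the 10 tested protein-coding genes within 100 kb, against the gap to Ptgds in kb, with negative values on the side of its 3′ end and bars for the standard error from limma. Ptgds at 6.54 stood far above its neighbours, of which Abca2 at 0.87 and Paxx at 0.73 were the highest.

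The genes with the pattern most like that of Ptgds were taken from the 203 tested genes whose log2 values had an SD of at least 1 over the 5 libraries. By Pearson r over the 5 libraries they were Ptp4a1 (0.995, ENSMUSG00000117310), Mib1 (0.994), Tmprss13 (0.991), Ackr3 (0.990) and Cdh22 (0.988). The points share their library, and each of these correlations reflects mainly the gap between the groups. Ptp4a1 encodes a protein tyrosine phosphatase, Mib1 a ubiquitin ligase of Notch ligands, Tmprss13 a membrane serine protease, Ackr3 an atypical chemokine receptor and Cdh22 a cadherin. Tmprss13 came closest in size, with 0.0621, 0.0439 and 0.0275 FPKM in the WT control libraries and 9.42 and 9.48 FPKM in the skmNrip1-/- libraries. Between the skmNrip1-/- libraries these 5 genes differed by 1.01-fold to 1.30-fold, less than the 2.57-fold of Ptgds.

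Markers of other cell types in muscle were set beside Ptgds because its level differed between the skmNrip1-/- libraries. In the 12 marker lists 0 of the tested genes were called, against 0.453% of all genes tested. That share is so small that a count of 0 does not show equal cell content. Some markers were under the minimum for the test, and the 1 marker listed at 0 in any library was Fcer1a of the mast cell list. The tendon list (Tnmd, Fmod, Thbs4 and Scx) summed to between 43.3 and 62.8 FPKM in the WT control libraries and to 52.7 and 122 FPKM in the skmNrip1-/- libraries. It was thus within the WT control range in the first skmNrip1-/- library, in which Ptgds was at 16.8 FPKM, and 2.31-fold higher in the second, in which Ptgds was at 43.3 FPKM. Tnmd, Fmod and Thbs4 were higher in the second skmNrip1-/- library than in any other, and Scx, a transcription factor of tendon, was below every WT control library in both. The fibroblast list summed to 167 to 239 FPKM in the WT control libraries and to 195 and 260 FPKM, and the satellite cell list to 4.93 to 6.57 FPKM and to 5.07 and 8.47 FPKM. Within the fibroblast list Col1a1 (23.6 and 72.0 FPKM), Lum (8.31 and 14.1 FPKM) and Col3a1 (44.7 and 61.3 FPKM) were higher in the second skmNrip1-/- library. Pdgfra (2.40 and 1.93 FPKM) and Pi16 (5.51 and 3.70 FPKM) were lower in it, and Dcn was almost level (110 and 107 FPKM). Within the satellite cell list Chodl was at 2.86 and 6.13 FPKM in the skmNrip1-/- libraries. Vcam1, at 1.47 and 1.49 FPKM, was above every WT control library in both, while Pax7 and Myf5 were below every WT control library in both. The sums of these 3 lists were higher in the second skmNrip1-/- library than in the first, and their part in the gap between the Ptgds values was not tested.

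The mast cell list summed to 2.33 to 9.03 FPKM in the WT control libraries and to 6.57 and 3.69 FPKM in the skmNrip1-/- libraries. The macrophage list was at 9.60 to 20.8 FPKM and at 15.7 and 12.7 FPKM, and the adipocyte list at 7.41 to 13.9 FPKM and at 11.9 FPKM in both. All 3 lay within the WT control range. The Schwann cell and perineurium list was at 18.3 to 28.1 FPKM and at 23.2 and 15.5 FPKM, and the smooth muscle list at 127 to 148 FPKM and at 133 and 142 FPKM. The endothelial list was at 73.1 to 83.3 FPKM and at 68.7 and 77.2 FPKM. The platelet list was at 3.92 to 5.64 FPKM and at 5.92 and 2.11 FPKM. The erythroid list, at 284 to 428 FPKM in the WT control libraries and at 561 and 456 FPKM, lay above the WT control range in both skmNrip1-/- libraries. The myofiber list, at 63503 to 85484 FPKM and at 61076 and 58543 FPKM, lay below it in both.

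**Figure D4:**
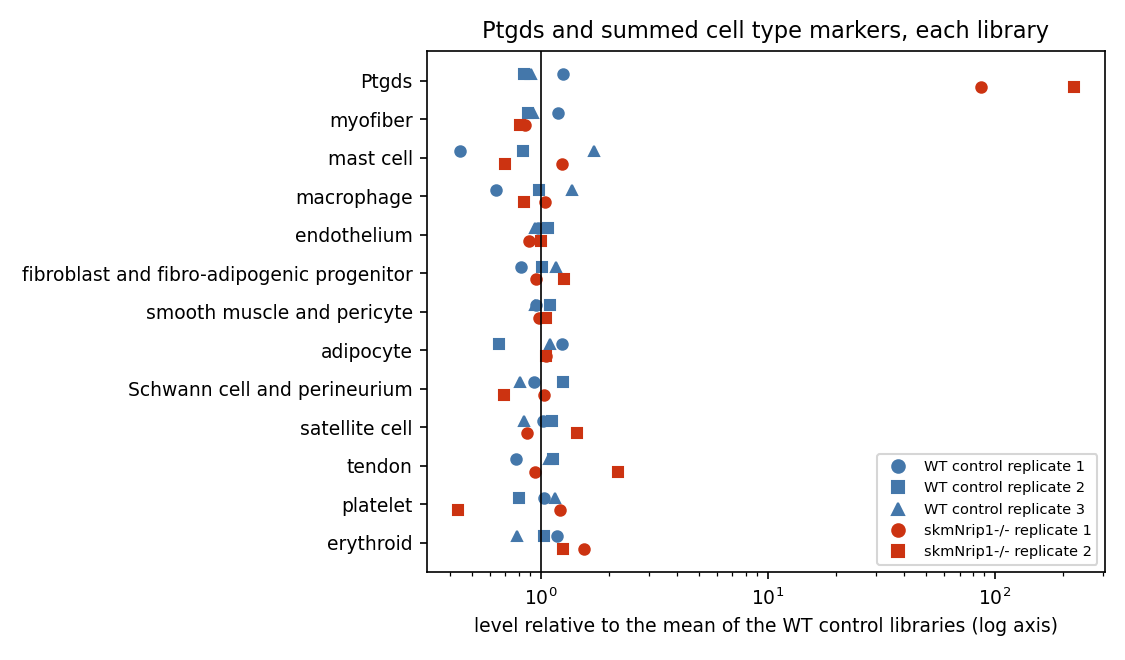
Ptgds and the summed FPKM of the 12 marker lists, each relative to the mean of the WT control libraries, on a log axis. Points are the 3 WT control and 2 skmNrip1-/- libraries. The tendon list was 2.31-fold higher in the second skmNrip1-/- library than in the first. The mast cell, macrophage and adipocyte lists lay within the WT control range.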

How the data were processed

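RNA from TA muscle was sequenced in 3 WT control and 2 skmNrip1-/- libraries. Per the labels and the study's methods, the authors used Salmon 1.10.2 on mm10, tximport and DESeq2 1.44.0. How the deposited FPKM were computed, and from which annotation, is not given in the sources used here. The deposited table also holds the authors' log2 fold changes and p-values, which were not used.

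Values were tested with limma 3.58.1 (R 4.3.3, lmFit and eBayes with an intensity trend, two-sided) on log2(FPKM + 0.1) for the 12148 genes that averaged 0.5 FPKM or more, and p-values were adjusted by the Benjamini-Hochberg method. A count test was not run, since FPKM are not counts. The code was tested on simulated data. The study's legend for this comparison gives n = 3 in each group, while 2 skmNrip1-/- libraries were analysed here. Neither the labels nor the methods state that the libraries come from separate mice, so p-values measure only the spread between these libraries. With 2 against 3 libraries an exact permutation test cannot go below 0.1 (one-sided), so none was run.

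The relative library factors and fragments were estimated from FPKM multiplied by transcript length less the 320 to 335 bases that the fragment size takes off. In each library between 99.3% and 99.8% of the low values of genes with 1 transcript lay within 0.15 of a whole number. Intervals and fragment numbers cover the stated error only. Coordinates come from GENCODE M21 (GRCm38), in which 16996 of the 17015 identifiers were found. Promoters come from RefSeq (GRCm38.p6). Pla2g16, Zadh2 and Cyp2c23 were matched by older symbols.

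The enzymes and lists were chosen with earlier results of these data known. Genes were named as the 9 enzymes, Nrip1, the called, highest, lowest and most abundant tested genes of each pathway list, the 5 genes most like Ptgds and the protein-coding genes within 100 kb of it. Other genes were named after their values were seen.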

Additional observations from a re-analysis of the deposited data

How the results depend on the processing

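Ptgds was higher in the skmNrip1-/- libraries under every alternative run. It was chosen by these same values, so the alternatives show the size of its difference and do not check its direction. Its log2 difference was 4.56 with a pseudocount of 1 and between 5.86 and 7.22 when 1 library was left out. Raising WT control values to a floor of 3 fragments, an alternative chosen after seeing the data, left it at 6.54, since all lay above that floor. Of the other enzymes 0 were called in all 14 alternatives. The genes called higher and lower over the whole table numbered 14 and 3 at an adjusted p of 0.01, 29 and 59 on the TPM scale, 22 and 3 without the intensity trend, and 6 to 55 and 3 to 16 when 1 library was left out. Library numbers are shared between the groups. Correlations between the deviations of libraries with the same number were small, at 0.06 and 0.10, but were the highest for each skmNrip1-/- library. With 2 skmNrip1-/- libraries their deviations mirror each other, so these values cannot decide whether libraries were paired. With a replicate block the counts were 18 and 4, and Ptges3 was at -0.0038. The block gives the same differences as leaving out WT control library 3, which has no partner. Rescaling by the median of ratios divided every library by the same factor and so repeated the main fit. The 14 alternatives are thus not separate checks. Pathway genes called lower numbered 2 on the TPM scale, where Prxl2b (-0.94), a prostamide and prostaglandin F synthase, joined Cyp4f39, and 0 to 1 when 1 library was left out. Nrip1 had a log2 difference of 1.64 to 1.98 over the settings, and of 1.74 to 2.09 when 1 library was left out. It lost its call without the intensity trend (adjusted p 0.0769, limma), with the block (0.128) and without WT control library 3 (0.114). Without skmNrip1-/- library 1 or 2, which leaves 1 library in that group, the difference was 1.85 and 2.02.

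Directions turned on the TPM scale for Ptges2 (-0.049), Ptges3 (-0.23), Ptgis (-0.28), Apod (-0.23), Cbr1 (-0.15), Ptgfrn (-0.11) and Ptgir (-0.25), where the median of all genes was -0.29. TPM divides each library by its FPKM sum, at 1144714, 1031290 and 969144 in the WT control libraries and 1288038 and 1286254 in the skmNrip1-/- libraries. With a pseudocount of 1 Ptgis was at -0.0015. Leaving out 1 library gave ranges that cross 0 for Ptgis (-0.19 to 0.20), Ptges3 (-0.0038 to 0.16), Akr1b3 (-0.10 to 0.032), Apod (-0.075 to 0.21), Ltc4s (-0.15 to 0.60), Pla2g4b (-0.086 to 0.11), Ptgfrn (-0.034 to 0.30), Ptgir (-0.10 to 0.12), Gstm3 (-1.93 to 0.21), Lcn2 (-0.71 to 0.079) and Mup20 (-0.47 to 1.65), and none of these genes was called. The cause of these turns was not tested. The estimated 2 to 7 fragments of Ptgs2 and 5 to 7 fragments of Ptgds in WT control muscle limit what can be said of their levels there.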
